A study of Mus musculus with 3 samples.

Results

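Mast cells and basophils made up 215 of the 20504 cells kept from a single-cell RNA study of mouse jaw. They were chosen by their own transcripts: a kept cell had to carry at least 5 unique molecular identifiers (UMIs, each standing for 1 captured RNA molecule) of Mcpt8, Prss34, Cpa3, Fcer1a and Ms4a2 together, and at least 2 of these 5 genes. The 1d library gave 57 of these cells among 5127 kept cells, the 7d library 131 among 6497, and the Ctrl library 27 among 8880. Because those 5 genes chose the cells, the number of cells and the levels of these genes are descriptions.

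All animals were wild-type male C57BL/6 mice aged 10 weeks. The 1d and 7d mice were killed 1 and 7 days after 10 Gy of irradiation to the head and neck, and the Ctrl mice were the controls. Cells of 8 mice were pooled into each of the 3 libraries, after digestion of the minced jaw with collagenase II, freezing and thawing. Each group therefore had 1 library and no replicate. No test between groups was possible, cells of 1 library share their source and are not replicates, and every 95% interval given here covers counting error only.

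Mast cells and basophils are the granulocytes that bind IgE through the high-affinity receptor FcεRI, whose alpha and beta chains are encoded by Fcer1a and Ms4a2. Both store histamine and proteases in granules and release them, with lipid mediators and cytokines, when bound IgE is crosslinked. Mouse basophils carry the granule proteases Mcpt8 and Prss34, develop in bone marrow and circulate for a short time, whereas connective tissue mast cells carry Mcpt4, Tpsb2, Cma1 and Cpa3, mature in tissue and depend on the receptor Kit. Both lineages need the transcription factor Gata2.

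The promoters of the 5 genes that chose the cells, and that of Cd200r3, a basophil surface receptor that took no part in the choice, are shown because these genes identify the cells in every result below. Each runs from 250 bases before to 50 bases after the RefSeq gene start (build GRCm38.p6), 5′ to 3′ on the gene's strand, and all 6 genes matched an entry. Capitals mark AGATAA or TGATAA, or their reverse complements TTATCT and TTATCA, words that GATA factors are known to bind.
Mcpt8 (chr14:56085148-56085447, minus strand): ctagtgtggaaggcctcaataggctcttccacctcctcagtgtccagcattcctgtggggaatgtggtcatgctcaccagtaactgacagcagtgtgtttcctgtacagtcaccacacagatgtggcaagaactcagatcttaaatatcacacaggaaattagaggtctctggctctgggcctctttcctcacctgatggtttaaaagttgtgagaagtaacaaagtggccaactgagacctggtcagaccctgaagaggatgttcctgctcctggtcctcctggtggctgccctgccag
Prss34 (chr17:25298144-25298443, plus strand): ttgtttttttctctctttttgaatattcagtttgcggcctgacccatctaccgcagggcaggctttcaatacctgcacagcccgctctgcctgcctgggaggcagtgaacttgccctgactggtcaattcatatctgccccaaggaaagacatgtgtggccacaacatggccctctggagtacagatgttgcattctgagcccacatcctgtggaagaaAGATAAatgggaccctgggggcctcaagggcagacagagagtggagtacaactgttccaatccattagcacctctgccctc
Cpa3 (chr3:20242132-20242431, minus strand): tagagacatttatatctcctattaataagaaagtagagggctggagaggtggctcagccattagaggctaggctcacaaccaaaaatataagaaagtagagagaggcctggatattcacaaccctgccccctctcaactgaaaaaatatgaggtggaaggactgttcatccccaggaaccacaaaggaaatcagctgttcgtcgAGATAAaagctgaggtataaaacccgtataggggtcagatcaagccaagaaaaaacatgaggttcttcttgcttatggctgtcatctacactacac
Fcer1a (chr1:173227180-173227479, minus strand): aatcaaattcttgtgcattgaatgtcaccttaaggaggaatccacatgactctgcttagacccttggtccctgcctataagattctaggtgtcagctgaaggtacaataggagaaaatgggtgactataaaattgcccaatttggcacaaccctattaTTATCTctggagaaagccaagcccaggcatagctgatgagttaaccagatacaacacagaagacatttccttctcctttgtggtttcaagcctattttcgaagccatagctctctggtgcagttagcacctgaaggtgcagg
Ms4a2 (chr19:11623670-11623969, minus strand): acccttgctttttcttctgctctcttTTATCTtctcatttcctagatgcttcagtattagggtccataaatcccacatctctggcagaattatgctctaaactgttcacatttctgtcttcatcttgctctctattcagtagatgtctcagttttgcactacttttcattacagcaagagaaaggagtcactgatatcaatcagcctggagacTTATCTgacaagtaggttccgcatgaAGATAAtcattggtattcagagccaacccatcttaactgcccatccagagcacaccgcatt
Cd200r3 (chr16:44943428-44943727, plus strand): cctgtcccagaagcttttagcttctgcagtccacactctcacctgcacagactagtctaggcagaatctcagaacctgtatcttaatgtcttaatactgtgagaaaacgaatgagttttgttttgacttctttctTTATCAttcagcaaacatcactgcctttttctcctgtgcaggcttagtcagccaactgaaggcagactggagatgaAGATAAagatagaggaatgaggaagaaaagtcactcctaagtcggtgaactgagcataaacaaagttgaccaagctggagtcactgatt
At least 1 of these words stood in 5 of the 6 promoters, with 3 in Ms4a2 and 2 in Cd200r3, and no such word stood in the Mcpt8 window. Of all 32851 promoters of this length in the same table, 18.6% held one. These matches describe the letters and do not show binding.

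Outside the 5 genes of the rule, the cells bore other transcripts known from basophils. They were split by protease: 195 cells with more Mcpt8 UMIs than Mcpt4 and Tpsb2 UMIs were called basophils (52 in 1d, 118 in 7d and 25 in Ctrl), 7 cells with the opposite were called mast cells (1 in 1d, 6 in 7d and 0 in Ctrl), and 13 had neither (4, 7 and 2). Cd200r3 stood at 488 CPM (counts per 1000000 UMIs of the class) in 1d basophils, 267 in 7d and 493 in Ctrl, against 1.38, 1.13 and 2.64 CPM in all other kept cells of the same 3 libraries. Gata2 stood at 800, 1134 and 736 CPM in basophils of 1d, 7d and Ctrl, against 8.57, 8.74 and 7.76 CPM in the other cells. Cyp11a1, a steroid synthesis enzyme, stood at 599, 594 and 1527 CPM in the basophils and at 2.87, 3.60 and 8.87 CPM in the other cells. In each library these 3 genes were therefore far above the rest of the jaw. Over the 6 mast cells of 7d, Cd200r3 stood at 624 CPM, Cyp11a1 at 720 CPM and Gata2 at 864 CPM. The 3 genes thus did not set the 7d basophils apart from those mast cells.

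By the ratio of basophils to all other kept cells, taking for each gene its smallest ratio over the 3 libraries, the 12 leading genes outside the rule were Alox15, Cd200r3, Cyp11a1, Gata2, Car8, Slco2b1, Slc18a2, Il6, Hgf, Cdh1, Hs3st1 and P2ry1. Their smallest ratios ran from 188 for Alox15, a lipoxygenase, to 17.4 for P2ry1, a nucleotide receptor. Slc18a2, the transporter that loads histamine into granules, was 88.8-fold, 194-fold and 67.2-fold above the other cells in 1d, 7d and Ctrl. Of the basophil list, 15 of the 18 measured genes outside the rule were at least 2-fold above the other cells in each library and 0 were at least 2-fold below, where 4.59% and 2.58% of all 7629 genes were.

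**Figure D1:**
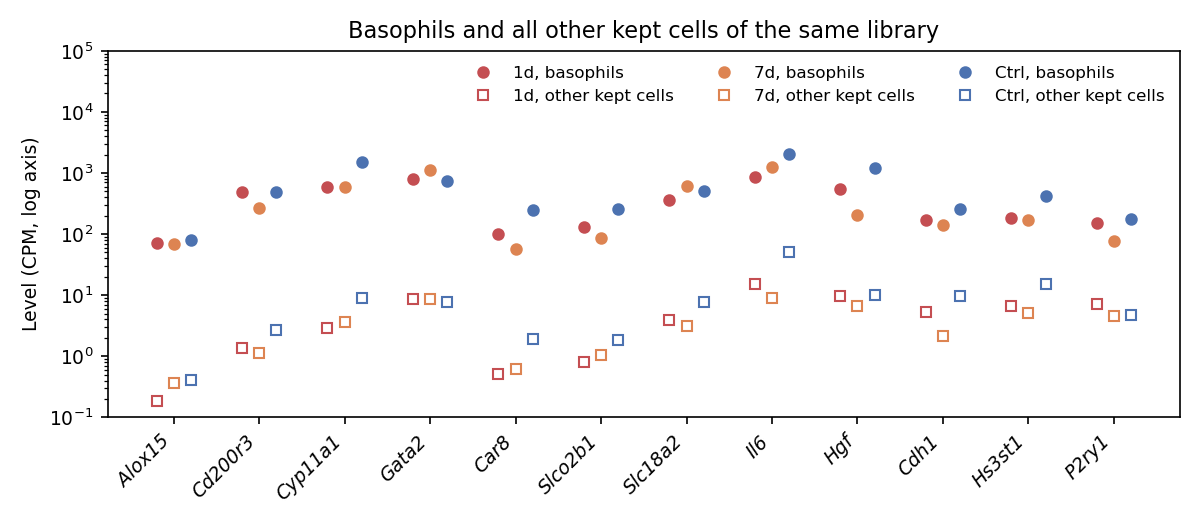
Level in CPM (log axis) of the 12 genes outside the rule that stood furthest above all other kept cells; filled points are basophils and open squares the other kept cells of 1d, 7d and Ctrl. In every library each filled point lies at least 17.4-fold above its square.

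The same split held for histamine, mediators and cytokines. Of the list of histamine, lipid mediator and granule genes, 10 of 19 measured genes outside the rule were at least 2-fold above the other cells in all 3 libraries and 0 below. Of the cytokine list the counts were 10 of 20 above and 1 below, and of the mast cell list 6 of 8 above and 0 below. Other lists lay closer to the background: 6 of 27 cytokine receptors were above and 3 below, 5 of 28 NF-kB genes above and 2 below, and 3 of 18 granulocyte progenitor genes above and 0 below. Of the IgE signalling genes outside the rule, 2 of 22 were above and 1 below, and of 27 lineage transcription factors 3 were above and 2 below. Of 6 eosinophil genes 2 were above and 0 below, of 27 p53 targets 2 and 0, of 19 interferon genes 0 and 2, of 32 immediate early and heat shock genes 1 and 2, and of 16 glucocorticoid genes 1 and 3. Of 27 cell cycle genes 0 were above and 0 below in all 3 libraries.

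Free RNA, released by broken cells into every droplet, was small for the genes of the rule. In B cells, defined by their markers and not expected to make these proteases, a Mcpt8 UMI was present in 0.628% of 1d cells, 0.858% of 7d cells and 0.103% of Ctrl cells, and a Prss34 UMI in 2.02%, 0.429% and 0.206%, at median depths of 2823, 2809 and 2079 UMIs. Every basophil carried Mcpt8 by its definition, with median depths of 10116, 8937 and 5823 UMIs. The depth differed: median UMIs per kept cell were 5196 in 1d, 3935 in 7d and 2463 in Ctrl. Kept barcodes shared between libraries numbered 9 (1d and 7d), 13 (1d and Ctrl) and 15 (7d and Ctrl), no member barcode was a member in another library, and 2 member barcodes of 7d or Ctrl occurred among the kept barcodes of the other.

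Basophils formed a larger share of the irradiated libraries. All members together were 1.11% of kept cells in 1d (95% interval 0.843 to 1.44), 2.02% in 7d (1.69 to 2.39) and 0.304% in Ctrl (0.200 to 0.442). The 1d share was 3.66 times the Ctrl share (2.28 to 6.01), the 7d share 6.63 times the Ctrl share (4.36 to 10.4), and the 7d share 1.81 times the 1d share (1.32 to 2.52). Shares of a library sum to a whole, so a larger share does not show more basophils in the jaw, and the loss or gain of other cells was not measured here.

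Basophils alone were 1.01%, 1.82% and 0.282% of kept cells in 1d, 7d and Ctrl. With cells thinned to 1000 UMIs before the rule was applied, 34 members remained in 1d, 82 in 7d and 15 in Ctrl, and the log2 ratios to Ctrl were 1.94 for 1d and 2.86 for 7d, against 1.87 and 2.73 unthinned. Scrublet, a doublet caller, scored many Ctrl basophils high: removing the highest scores took 5 of 52 basophils in 1d, 16 of 118 in 7d and 13 of 25 in Ctrl. Without them the log2 ratios of the basophil share to Ctrl were 2.70 in 1d and 3.49 in 7d, against 1.85 and 2.69 with all cells.

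The rule's limit of 5 UMIs cut through few cells, but through more of them relative to the members in Ctrl than in 1d or 7d. Members with exactly 5 UMIs numbered 4 in 1d, 6 in 7d and 3 in Ctrl, and cells just outside, with 4 UMIs of at least 2 genes, numbered 5, 6 and 5. The members' median was 119 UMIs of the 5 genes in 1d, 83 in 7d and 49 in Ctrl. All 5 genes were detected in 27 of 57 members in 1d, in 57 of 131 in 7d and in 6 of 27 in Ctrl.

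**Figure D2:**
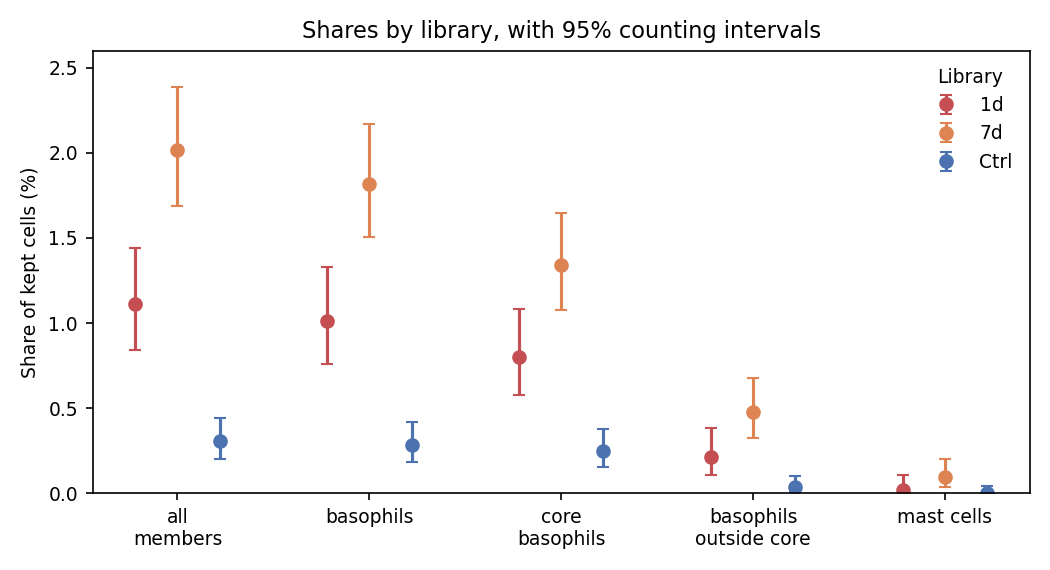
Share of kept cells (%) by class for 1d, 7d and Ctrl; points are shares of 1 library and bars exact 95% binomial intervals for counting error. For all members the shares are 1.11%, 2.02% and 0.304%, and the mast cell count is 1, 6 and 0 cells.

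Not every cell called a basophil looked like one. A cell of 7d held 22 UMIs of Mcpt8 and Prss34 beside 115 of Mcpt4, Tpsb2 and Cma1, and it stays among the basophils because Cma1 took no part in the split. In 45 of the 195, the UMIs of Mpo, Elane and Prtn3 (primary granule proteins of neutrophil precursors) with Prg2 and Epx (eosinophil granule proteins) equalled or outnumbered those of Mcpt8 and Prss34. These cells go against the basophil label and are called here the cells outside the core. They numbered 11 of 52 in 1d (21.2%, 11.1 to 34.7), 31 of 118 in 7d (26.3%, 18.6 to 35.2) and 3 of 25 in Ctrl (12%, 2.55 to 31.2).

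Of these 45 cells, 11 in 1d, 26 in 7d and 2 in Ctrl were richer in Mpo, Elane and Prtn3, and 0, 5 and 1 were richer in Prg2 and Epx. They were deep, with median UMIs of 29038, 21383 and 25704, against 7554, 7584 and 5818 in the core basophils of 1d, 7d and Ctrl. Cd200r3 was detected in 3 of 11 of them in 1d, 7 of 31 in 7d and 1 of 3 in Ctrl. A few were extreme: 1 cell of 1d held 485 UMIs of Mpo and 488 of Elane beside 2 of Mcpt8, and 1 cell of 7d held 662 UMIs of Prg2 beside 3 of Mcpt8. What these cells are was not tested. Because they are deep, they weigh heavily in summed counts. They held 299215 of 659938 basophil UMIs in 1d, 690291 of 1402623 in 7d and 66515 of 200995 in Ctrl. Values for the 41, 87 and 22 core basophils are therefore given beside some of the results.

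The core basophils were 0.80% of kept cells in 1d (0.574 to 1.08), 1.34% in 7d (1.07 to 1.65) and 0.248% in Ctrl (0.155 to 0.375). Their share was 3.23 times Ctrl in 1d (1.88 to 5.69) and 5.41 times Ctrl in 7d (3.35 to 9.06).

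**Figure D3:**
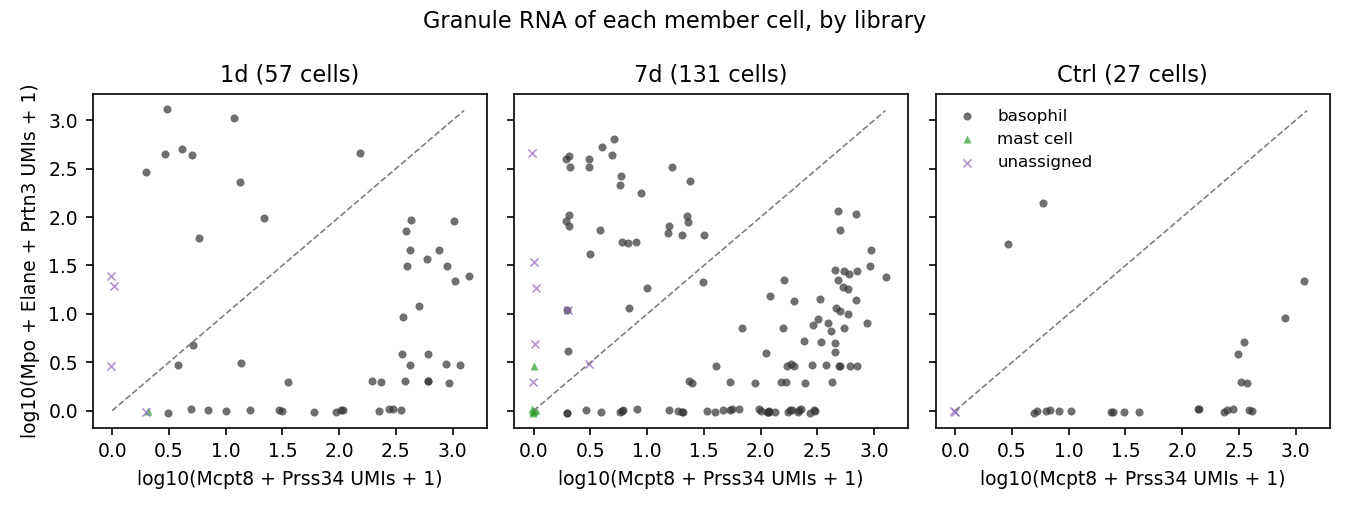
UMIs per member cell on log10(UMIs + 1) axes, Mcpt8 plus Prss34 along the bottom and Mpo plus Elane plus Prtn3 up the side, for 1d, 7d and Ctrl; each point is 1 cell with slight jitter, and the dashed line marks equal sums. The cells outside the core, in which UMIs of Mpo, Elane, Prtn3, Prg2 and Epx together equal or outnumber those of Mcpt8 and Prss34, number 11 in 1d, 31 in 7d and 3 in Ctrl.

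Markers of other cell types were checked over the basophils. Neutrophil markers (S100a8, S100a9, Ltf, Camp, Ngp, Retnlg and Csf3r, all 7 detected) summed to 19011 CPM in 1d, 2251 in 7d and 3134 in Ctrl, with medians of 6.5, 2 and 3 UMIs per cell; 1 cell of each library held 66.0%, 89.7% and 89.5% of them. The 5 erythroid markers summed to 276, 6289 and 1756 CPM, and 1 cell held 9.34%, 47.5% and 76.2% of them. The 7 eosinophil markers summed to 15.2, 1447 and 2149 CPM, and 1 cell held 20%, 34.5% and 100% of them. In Ctrl Epx, Siglecf, Ccr3, Il5ra, Ear1 and Ear2 were at 0. In Ctrl, single cells thus carried most of the neutrophil, erythroid and eosinophil RNA. The 8 markers of granulocyte and stem progenitors summed to 8884, 5424 and 1483 CPM, with 23.2%, 9.44% and 56.7% of them in 1 cell. The 9 basophil markers summed to 11365, 9139 and 13040 CPM and the 9 mast cell markers, which basophils share in part, to 2911, 1715 and 2677 CPM.

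Macrophage genes C1qa, C1qb and C1qc were at 0 in the basophils of all 3 libraries, and all 7 monocyte and macrophage markers summed to 447, 262 and 224 CPM. Marker sums were 89.4, 101 and 174 CPM for dendritic cells, 21.2, 23.5 and 24.9 CPM for B cells, and 1.52, 29.9 and 9.95 CPM for T cells. For natural killer cells they were 303, 361 and 254 CPM, with Ncr1, Klrb1c and Gzma at 0 in 1d and Ctrl, and for megakaryocytes 303, 327 and 413 CPM, with Ppbp and Gp9 at 0 throughout. Mesenchymal sums were 12.1, 7.84 and 39.8 CPM, endothelial sums 109, 124 and 199 CPM, and epithelial sums at most 4.98 CPM. The part of any of these cells in the differences below was not tested.

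The 25 Ctrl basophils are under the 30 cells a library was meant to hold for this, so the limit was lowered to 20 after the counts were seen, and the core and the 7d against 1d comparison were also added then. Between libraries, all basophils of a library were summed and genes with at least 20 UMIs over the pair were compared. Both comparisons with Ctrl share its 25 cells. In 1d against Ctrl, 13.1% of 4943 genes were at least 2-fold higher and 6.21% at least 2-fold lower, and in 7d against Ctrl 15.5% of 6661 genes were higher and 5.82% lower. In 7d against 1d, 5.25% of 7428 genes were at least 2-fold higher and 4.98% lower. Among core basophils, 16.0% of 3144 genes were higher and 6.77% lower in 1d against Ctrl, and 19.4% of 4552 genes were higher and 6.79% lower in 7d against Ctrl. For 7d against 1d in the core the shares were 6.71% and 5.30%. These are the shares against which counts over a gene list are read below, and the median log2 ratio over all genes was 0.10, 0.14 and 0.02 in basophils for 1d against Ctrl, 7d against Ctrl and 7d against 1d.

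The genes of the rule did not move together. Mcpt8 stood at 6911 CPM in 1d basophils, 5535 in 7d and 4791 in Ctrl, with medians of 44, 26 and 10 UMIs per cell. Prss34 stood at 17859, 11938 and 21503 CPM, with medians of 139.5, 84.5 and 107 UMIs. Cpa3, a carboxypeptidase of mast cell and basophil granules, stood at 1232, 1521 and 557 CPM. Over all basophils Mcpt8 and Cpa3 were thus lowest in Ctrl while Prss34 was highest there. In core basophils Prss34 stood at 32271 CPM in 1d, 23399 in 7d and 31878 in Ctrl, so the 1d and Ctrl levels were close. Of the receptor chains, Fcer1a stood at 474, 272 and 249 CPM and Ms4a2 at 236, 227 and 54.7 CPM. After thinning every cell to 1000 UMIs, Ms4a2 was detected in 12 of 52 basophils in 1d (23.1%), 29 of 118 in 7d (24.6%) and 0 of 25 in Ctrl, which allows a share of up to 12%.

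Several surface and identity genes outside the rule stood lower in both irradiated libraries, and others stood higher. Over the whole basophil list, rule genes included, 10 measured genes were higher and 12 lower in 1d against Ctrl. In 7d against Ctrl 8 were higher and 14 lower. In core basophils 12 were higher and 10 lower in 1d, and 8 and 14 in 7d. Ifitm1, an interferon-inducible membrane protein abundant in basophils, stood at 1506 CPM in 1d, 1087 in 7d and 3901 in Ctrl, which is 0.386 times Ctrl (0.351 to 0.425) and 0.279 times Ctrl (0.255 to 0.304). Cyp11a1 was 0.392 times Ctrl in 1d and 0.389 times Ctrl in 7d. Cd9, a tetraspanin, stood at 949, 895 and 1935 CPM. All 3 were highest in Ctrl. In the other kept cells Ifitm1 also stood lower after irradiation, at 111, 60.5 and 425 CPM in 1d, 7d and Ctrl.

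Gata2 stood apart from these, at 1.09 times Ctrl in 1d (0.904 to 1.31) and 1.54 times Ctrl in 7d (1.30 to 1.84). So did Cd63, at 1.32 times Ctrl in 1d (1.12 to 1.56) and 1.44 times in 7d (1.23 to 1.68). Itgb7 was 1.39 and 1.47 times Ctrl, with intervals that include 1 (0.826 to 2.46 and 0.906 to 2.54). Cd200r3 was 0.991 times Ctrl in 1d (0.788 to 1.25) and 0.543 times Ctrl in 7d (0.434 to 0.684). Il4, the cytokine basophils are best known for, stood at 388, 175 and 294 CPM. That was 1.32 times Ctrl in 1d (0.992 to 1.79) and 0.597 times Ctrl in 7d (0.448 to 0.808). In core basophils Cd200r3 was 1.17 times Ctrl in 1d and 0.699 times in 7d, and Il4 1.60 and 0.765 times. Of the basophil list as a whole, which holds the 5 genes of the rule, 2 of 22 measured genes were at least 2-fold higher and 7 at least 2-fold lower in 1d against Ctrl (median log2 ratio -0.14), and 2 were higher and 10 lower in 7d against Ctrl (-0.87). In both comparisons the 2 genes at least 2-fold higher were Cpa3 and Ms4a2 of the rule. In core basophils the medians were 0.12 and -0.53.

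Histamine synthesis and the granule matrix differed less. Hdc, the enzyme that makes histamine, stood at 2871 CPM in 1d, 1566 in 7d and 2667 in Ctrl. That was 1.08 times Ctrl in 1d (0.978 to 1.19) and 0.587 times Ctrl in 7d (0.534 to 0.647). In core basophils Hdc was 1.26 and 0.692 times Ctrl. Slc18a2 stood at 355, 610 and 512 CPM. Srgn, the serglycin core protein that holds granule proteases, stood at 4920, 4027 and 6697 CPM. Hdc was therefore lowest in 7d and Slc18a2 lowest in 1d. Alox5ap, needed for leukotriene synthesis, stood at 891, 903 and 1154 CPM. Of the 21 measured genes of the histamine, lipid mediator and granule list, 2 were at least 2-fold higher and 1 lower in 1d against Ctrl (median log2 0.10), and 1 was higher and 2 lower in 7d against Ctrl (0.07), close to the medians over all genes. The list holds Mcpt8, Prss34 and Cpa3 of the rule, and Cpa3 is the gene higher in 7d and 1 of the 2 higher in 1d.

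IgE receptor signalling lay near the median of all genes. Fcer1g, the gamma chain shared with other Fc receptors, stood at 1127 CPM in 1d, 922 in 7d and 1388 in Ctrl. Syk, the kinase that docks on that chain, stood at 84.9, 81.3 and 59.7 CPM, with intervals of its ratios to Ctrl that span 1. Tyrobp, another adaptor with an activating motif, stood at 912, 655 and 786 CPM. None of these 3 was 2-fold from Ctrl. Of the list, which includes Fcer1a and Ms4a2 of the rule, 3 of 20 measured genes were at least 2-fold higher and 0 lower in 1d against Ctrl (median log2 -0.04), and 5 of 23 were higher and 1 lower in 7d against Ctrl (-0.02). Ms4a2 was 1 of the higher genes in each comparison.

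Cytokines and chemokines were the group that stood lowest in both irradiated libraries. Of 17 measured genes, 1 was at least 2-fold higher and 8 at least 2-fold lower in 1d against Ctrl (median log2 ratio -0.99), and of 18 measured genes 1 was higher and 9 lower in 7d against Ctrl (-1.0). In core basophils the counts were 0 and 5 of 17 in 1d (-0.90) and 1 and 9 of 18 in 7d (-1.01).

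Ccl4, a chemokine that draws lymphocytes and monocytes, stood at 4050 CPM in 1d, 2102 in 7d and 10264 in Ctrl, and was detected in 80.8%, 83.1% and 100% of basophils. It was 0.395 times Ctrl in 1d (0.372 to 0.418) and 0.205 times Ctrl in 7d (0.194 to 0.217). Its relative Ccl3 stood at 3447, 1951 and 6786 CPM. Both were therefore lowest in 7d and highest in Ctrl. Il6 stood at 870, 1230 and 2040 CPM, and Hgf, hepatocyte growth factor, at 549, 205 and 1214 CPM. Il6 was lowest in 1d and Hgf lowest in 7d.

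Cxcl2, a neutrophil chemoattractant, stood at 882, 1279 and 4144 CPM, and Il1b at 794, 426 and 1881 CPM. Both were 2-fold or more below Ctrl in both irradiated libraries. The other kept cells of the same libraries held 1017, 413 and 5162 CPM of Cxcl2 and 202, 48.4 and 1122 CPM of Il1b. In 1d and Ctrl the other cells thus held more Cxcl2 than the basophils did. With 5% of each basophil sum subtracted as free RNA of the whole library, Cxcl2 stood at 873, 1322 and 4074 CPM and Il1b at 823, 445 and 1912 CPM in 1d, 7d and Ctrl. A larger share of free RNA was not tested. For Ccl4 the other cells held 293, 209 and 695 CPM, and for Hgf 9.55, 6.59 and 10.2 CPM.

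Not every cytokine was lower. Csf1 stood at 165 CPM in 1d, 226 in 7d and 134 in Ctrl, or 1.23 times Ctrl (0.801 to 1.95) and 1.68 times Ctrl (1.13 to 2.59). Cxcl10, an interferon-induced chemokine, was 2.65 times Ctrl in 1d over all basophils and 0.994 times Ctrl over core basophils. Vegfa stood at 74.2, 164 and 224 CPM. Tgfb1 stood at 265, 307 and 343 CPM, within 2-fold of Ctrl in both. In 7d against 1d, 2 of 19 cytokine genes were at least 2-fold higher and 5 lower (median log2 -0.68). In core basophils these counts were 1 and 5 of 19 (-0.58).

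Csf2rb and Csf2rb2, which stood lower in both irradiated libraries, encode signalling chains of the receptor for Il3, the main growth factor of basophils. The chain encoded by Csf2rb also serves the receptors for Il5 and Csf2. Csf2rb stood at 788 CPM in 1d, 699 in 7d and 1756 in Ctrl, and Csf2rb2 at 339, 339 and 1005 CPM. The 2 genes are near-identical copies, so counting may have split reads between them, and they are read as a pair: both lay between 0.338 and 0.449 times Ctrl. Il3ra, the chain specific to Il3, stood at 111, 131 and 79.6 CPM, with intervals of its ratios that include 1 (0.801 to 2.56 in 1d and 0.988 to 2.94 in 7d).

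C3ar1, the receptor for the complement fragment C3a, stood at 34.9 CPM in 1d, 29.2 in 7d and 114 in Ctrl. Il1rl1, the receptor for Il33, stood at 200, 194 and 279 CPM. Of the receptor list, 3 of 24 measured genes were at least 2-fold higher and 4 lower in 1d against Ctrl (median log2 -0.26), and 2 of 27 were higher and 7 lower in 7d against Ctrl (-0.51).

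Over all basophils, transcripts of granulocyte precursors stood highest of the lists. Of the 18 measured genes of the granulocyte progenitor list, 11 were at least 2-fold higher and 0 lower in 1d against Ctrl (median log2 1.41), and 10 of 17 were higher and 0 lower in 7d against Ctrl (1.22). In core basophils, from which the most Mpo-rich cells are left out by definition, 7 of 13 were higher in 1d (1.03) and 7 of 15 in 7d (0.96), with 0 lower. With the genes that had no UMI in 1 library set to 3 UMIs there, the 7d core median was 0.82 with 6 genes higher.

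Mpo, myeloperoxidase, stood at 3694 CPM in 1d basophils, 3060 in 7d and 826 in Ctrl, which is 4.47 times Ctrl (3.82 to 5.27) and 3.71 times Ctrl (3.17 to 4.35). It was detected in 33 of 52, 80 of 118 and 8 of 25 basophils, and in core basophils the ratios were 4.82 and 3.56. Ms4a3, a membrane protein of granulocyte precursors, stood at 411, 333 and 104 CPM, and Myb, a transcription factor of blood precursors, at 259, 284 and 89.6 CPM. Each of these 3 genes was lowest in Ctrl. In the other kept cells Mpo stood at 1255, 2083 and 224 CPM and Myb at 150, 199 and 116 CPM, so Mpo was lowest in Ctrl there too. With 5% of each basophil sum subtracted as free RNA of the whole library, Mpo was 4.47 times Ctrl in 1d and 3.64 times Ctrl in 7d.

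The chaperones of the endoplasmic reticulum on the same list, Calr and Hsp90b1, stood at 1330 and 893 CPM in 1d, 1629 and 1163 CPM in 7d, and 721 and 498 CPM in Ctrl. Elane stood at 2564, 717 and 24.9 CPM, and it was detected in 14 of 52, 34 of 118 and 1 of 25 basophils. In core basophils it had 9, 10 and 0 UMIs, or 24.9 CPM in 1d and 14.0 in 7d, so nearly all of it lay outside the core. Of the cells outside the core, 9 of 11 carried Elane in 1d, 26 of 31 in 7d and 1 of 3 in Ctrl.

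Among lineage transcription factors, 4 of 25 measured genes were at least 2-fold higher and 2 lower in 1d against Ctrl (median log2 0.12), and 4 were higher and 0 lower in 7d against Ctrl (0.40). Klf2 stood at 235 CPM in 1d, 188 in 7d and 29.9 in Ctrl, which is 7.87 and 6.28 times Ctrl. In core basophils it was 4.16 and 4.78 times Ctrl. Its Ctrl level rests on few UMIs, so the size of these ratios is uncertain. Lmo4 stood at 565, 581 and 294 CPM, and Cebpa, which directs granulocyte fate, at 259, 346 and 174 CPM. These 3 were lowest in Ctrl. Klf2 stood at 331, 474 and 363 CPM in the other kept cells.

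Cell cycle genes differed by which cells were counted. Over all basophils, 12 of 26 measured genes were at least 2-fold higher and 1 lower in 1d against Ctrl (median log2 0.41), and 7 were higher and 0 lower in 7d against Ctrl (0.14). Over core basophils, 13 of 17 were higher in 1d (2.84) and 17 of 23 in 7d (1.76), with 0 lower in each. In each comparison 5 of these genes had no UMI in the 22 core basophils of Ctrl. With those set to 3 UMIs the medians were 1.75 and 1.62, with 13 and 14 genes higher. The core sums were 360723 UMIs in 1d, 712332 in 7d and 134480 in Ctrl. A gene could thus be measured through the irradiated library alone, which favours genes that are high there. The core also leaves out 3 Ctrl basophils, which held 8 of the 12 Mki67 UMIs of Ctrl. The size of the core medians is therefore uncertain.

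Top2a, the topoisomerase of dividing cells, stood at 255 CPM in 1d basophils, 140 in 7d and 69.7 in Ctrl. Ube2c, which drives cells out of mitosis, stood at 230, 151 and 19.9 CPM. Both were highest in 1d and lowest in Ctrl. The replication genes Mcm2, Mcm6 and Pcna lay between 0.696 and 1.01 times Ctrl over all basophils and between 1.47 and 4.91 times Ctrl over core basophils.

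To compare dividing cells at 1 depth, each cell was thinned to 1000 UMIs and called cycling with at least 2 of Mki67, Top2a, Birc5, Cdk1, Ccnb2 and Tpx2. Of basophils, 7 of 52 were cycling in 1d (13.5%, 5.59 to 25.8), 4 of 118 in 7d (3.39%, 0.931 to 8.45) and 0 of 25 in Ctrl, which allows a share of up to 12%. Among core basophils the counts were 6 of 41, 4 of 87 and 0 of 22. The 1d and 7d intervals overlap, and with 25 cells a share in Ctrl as large as that of 7d was not detectable. Without thinning the shares were 42.3%, 33.1% and 12%. The other kept cells showed 8.80%, 5.93% and 0.521% cycling after thinning, with 113, 92 and 401 shallower cells left out.

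Targets of p53, the factor activated by DNA damage, were not higher as a group. Of 20 measured genes 3 were at least 2-fold higher and 6 lower in 1d against Ctrl (median log2 -0.57), and of 23 genes 2 were higher and 9 lower in 7d against Ctrl (-0.45). Mdm2, which degrades p53, stood at 60.6 CPM in 1d, 111 in 7d and 259 in Ctrl, and Cdkn1a, the arrest gene, at 439, 365 and 766 CPM. Bax, which opens mitochondria in cell death, stood at 77.3, 99.1 and 214 CPM. All 3 were highest in Ctrl. Gpx1, a peroxidase on the list, was lowest in Ctrl, at 1105, 1285 and 478 CPM. With cells thinned to 1000 UMIs, 6 genes of the list remained in 7d against Ctrl and their median log2 ratio was 0.20, of opposite sign. In the other kept cells Mdm2 stood at 116, 119 and 299 CPM and Cdkn1a at 245, 311 and 670 CPM, also highest in Ctrl.

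Genes of NF-kB and inflammation were lower as well, and this list shares Il1b, Il6, Cxcl2, Ccl3, Ccl4 and Tnf with the cytokine list. Of 27 measured genes 1 was at least 2-fold higher and 8 lower in 1d against Ctrl (median log2 -0.62), and of 28 genes 1 was higher and 9 lower in 7d against Ctrl (-0.42). Cd69, an early activation antigen, stood at 264, 247 and 702 CPM, and Traf1, a signalling adaptor, at 42.4, 38.5 and 129 CPM. Nfkbia, the inhibitor that NF-kB induces, was 1.28 and 1.01 times Ctrl. The list was therefore not low in every member.

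Immediate early genes and heat shock genes can be raised by tissue digestion. Of 30 measured genes of that list 6 were at least 2-fold higher and 7 lower in 1d against Ctrl (median log2 -0.17), and of 31 genes 2 were higher and 6 lower in 7d against Ctrl (-0.45). Hspa1b, an inducible chaperone, stood at 4019 CPM in 1d, 612 in 7d and 736 in Ctrl, and its near-identical copy Hspa1a at 2379, 339 and 582 CPM, so reads may be split between them. Both were highest in 1d, where the other kept cells held 1515 CPM of Hspa1b, against 846 in 7d and 1015 in Ctrl. Fosb stood at 90.9, 484 and 428 CPM, lowest in 1d, and Jun at 1479, 460 and 985 CPM, highest in 1d. In basophils with Cd200r3 the median in 7d against Ctrl was 0.10, of opposite sign. In 7d against 1d, 5 of 32 genes were at least 2-fold higher and 7 lower.

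Interferon response genes were sparse. Of 11 measured genes 3 were at least 2-fold higher and 1 lower in 1d against Ctrl (median log2 0.61, and -0.28 over 5 genes in core basophils), and of 12 genes 1 was higher and 4 lower in 7d against Ctrl (-0.60, and 0.40 in core basophils). Isg15, a ubiquitin-like protein, stood at 62.1, 26.4 and 79.6 CPM. Of the glucocorticoid list 3 of 13 were higher and 1 lower in 1d against Ctrl (-0.31), and 3 of 14 were higher and 3 lower in 7d against Ctrl (-0.20). Il1r2, the decoy receptor for interleukin 1, stood at 78.8, 12.8 and 154 CPM. Of the mast cell list 3 of 8 were higher and 0 lower in 1d (0.18), and 3 of 9 were higher and 0 lower in 7d (0.62). In each comparison 1 of the 3 is Cpa3 of the rule, and in 7d another is Cma1, whose 102 UMIs sat in 1 cell. Of 5 measured eosinophil genes 2 were higher and 0 lower in 7d against Ctrl (0.71), and too few were measured in 1d.

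**Figure D4:**
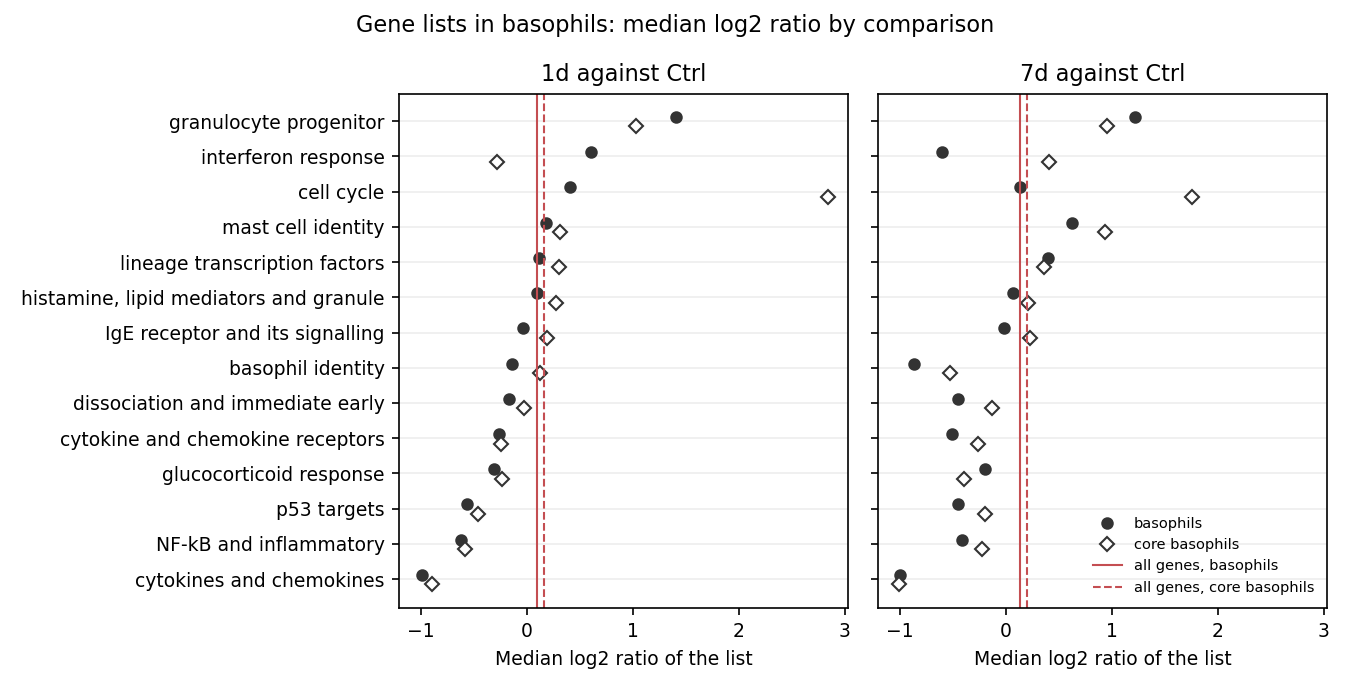
Median log2 ratio over the measured genes of each list in 1d against Ctrl (left) and 7d against Ctrl (right); filled circles are all basophils, open diamonds core basophils, and the solid and dashed lines the medians over all genes of each. Granulocyte progenitor genes lie furthest right among all basophils (1.41 and 1.22), cytokines and chemokines furthest left (-0.99 and -1.0), and the cell cycle list moves right in core basophils (2.84 and 1.76).

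Genes were also named by size alone, as those whose 95% interval lay furthest from a ratio of 1. Among the 12 highest in 1d against Ctrl were 5 histone genes, which have near-identical copies and are uncertain one by one, with Hist1h2ap at 511 CPM in 1d, 210 in 7d and 29.9 in Ctrl. Over all basophils Hist1h2ap was 17.1 times Ctrl in 1d (7.78 to 46.9) and H2ac8 9.38 times (3.93 to 29.3). These ratios rest on 6 and 5 UMIs in Ctrl. In core basophils they were 74.6 and 38.0, on no more Ctrl UMIs than that, so the size of the core ratios is uncertain. H2ac8 was among the 5 histone genes at 233, 81.3 and 24.9 CPM, and H2bc11 and H3c4 had no UMI in Ctrl. Taking 3 UMIs over the Ctrl basophils as the floor, H2bc11 and H3c4 were at least 5.38-fold and 4.47-fold higher in 1d. Their lower 95% limits were 4.23 and 3.48. The linker histone gene H1f3 was at least 6.29-fold higher by the same floor (lower 95% limit 4.97). Cdca3 and Tpx2, which act in mitosis, were at least 5.79-fold and 4.67-fold higher by that floor (lower limits 4.56 and 3.65), and 2.40-fold and 1.44-fold with cells thinned to 1000 UMIs. The RNA gene Lockd had 2 UMIs in Ctrl, and its ratio was 9.59 (2.55 to 81.0). Hspa1b, Mpo and Ms4a3, described above, complete the 12 with Lamtor2, of the lysosomal Ragulator complex, at 221, 171 and 44.8 CPM. In the other kept cells Hist1h2ap stood at 268, 179 and 14.0 CPM in 1d, 7d and Ctrl, and H2ac8 at 115, 102 and 9.38 CPM. H1f3 stood there at 37.7, 22.4 and 4.80 CPM and Cdca3 at 65.3, 68.1 and 11.5 CPM. Each of these was thus lowest in Ctrl outside the basophils too.

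Lowest in 1d against Ctrl was Serpinb2, a protease inhibitor, at 233 CPM in 1d, 162 in 7d and 1239 in Ctrl, which is 0.188 times Ctrl in 1d (0.153 to 0.231) and 0.131 times Ctrl in 7d (0.109 to 0.157). Rgs1, which dampens chemokine receptor signals, stood at 1121, 1777 and 3831 CPM. Ctsc, the protease that activates granule proteases, stood at 129, 173 and 448 CPM. The first 2 of these were detected in 17 and 24 of the 25 Ctrl basophils. Dusp5, a phosphatase that inactivates ERK, stood at 165, 220 and 547 CPM, and Arl4c, a small GTPase, at 215, 282 and 682 CPM. Also among the 12 lowest were Nabp1, Ccnd2, Tle1, Prcp, Csf2rb2, Ccl4 and Ifitm1, at 0.242 to 0.395 times Ctrl, and Ccnd2 was 0.124 times Ctrl in core basophils.

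Highest in 7d against Ctrl was Gstm1, a glutathione transferase, at 314 CPM in 7d, 164 in 1d and 24.9 in Ctrl, which is 12.6 times Ctrl in 7d (5.38 to 39.1) and 5.81 times Ctrl in core basophils. Txnip, which binds thioredoxin and curbs glucose uptake, stood at 393 CPM in 7d, 100 in 1d and 39.8 in Ctrl, or 9.87 times Ctrl in 7d (4.97 to 23). Hmox1, the haem-degrading oxygenase, stood at 431 CPM in 7d, 106 in 1d and 99.5 in Ctrl. Gstm1, Txnip and Hmox1 were thus highest in 7d. The other kept cells held 234, 138 and 76.1 CPM of Gstm1 and 219, 75.7 and 133 CPM of Txnip in 7d, 1d and Ctrl, and less Hmox1 in 7d than in Ctrl (312 against 619 CPM).

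Phlda1 and Irf2bp2 were 4.49 and 3.45 times Ctrl in 7d. Hmgb3 and Rnf125 each had 1 UMI in Ctrl, with ratios of 15.3 (2.69 to 611) and 13.8 (2.41 to 549), and Hdac7 had none, so that 7d was at least 2.96-fold higher by the 3-UMI floor (lower 95% limit 2.34). Ms4a2, a gene of the rule, Mpo and Hist1h2ap were also among the 12 highest.

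Lowest in 7d against Ctrl were Serpinb2, Ccl6 and Hgf. Ccl6, a myeloid chemokine, stood at 103 CPM in 7d, 335 in 1d and 796 in Ctrl, or 0.129 times Ctrl in 7d (0.102 to 0.163). Gzmb, the cytotoxic granule protease granzyme B, stood at 253 CPM in 7d, 530 in 1d and 1229 in Ctrl. Kcnj2, a potassium channel, stood at 22.1, 114 and 159 CPM in 7d, 1d and Ctrl. In each of these 3 genes 7d was lowest and Ctrl highest. Lilr4b and Lilrb4a, near-identical receptors that counting may confuse, were 0.267 and 0.197 times Ctrl. Ptk2b, Nabp1, Ifitm1, Ccl3 and Ccl4 complete the 12, at 0.205 to 0.288 times Ctrl.

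Between the irradiated libraries, which hold the larger numbers of basophils, 7 of the 12 genes lowest in 7d against 1d encode chaperones. Hspa1b was 0.152 times 1d (0.141 to 0.165), Hsph1 0.204 times, Hspe1 0.305 times, Hsp90aa1 0.343 times, Dnajb1 0.341 times and Hspd1 0.382 times. Hspb1 was 0.0711 times 1d, and 0.202 times in core basophils, with UMIs in 5 of 118 cells of 7d against 11 of 52 of 1d. Knl1, of the kinetochore, and Adora2b, an adenosine receptor, were 0.197 and 0.331 times 1d, and Kcnj2, Jun and Hgf complete the 12.

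Among the 12 highest in 7d against 1d, Hmox1 was 4.06 times, Txnip 3.93 times, Slc7a11, which imports cystine, 4.25 times, and Srxn1, a sulfiredoxin, 4.98 times 1d. Slc7a11 and Srxn1 stood at 212 and 90.5 CPM in 7d, 50 and 18.2 CPM in 1d, and 423 and 144 CPM in Ctrl, so in these 2 genes Ctrl was highest. Aqp3, a water and glycerol channel, had 72 UMIs in 7d and 1 in 1d, with a ratio of 33.9 (5.89 to 1356), and Dennd5b had 104 in 7d and 2 in 1d, with a ratio of 24.5 (6.60 to 205). With cells thinned to 1000 UMIs the ratio of Dennd5b was 1.62 and that of Hmox1 1.53, and in core basophils Hmox1 was 2.80 times 1d. Fosb, Nt5dc2, Oaf, Kcnn4, Pdlim1 and Phlda1 were 3.34 to 6.59 times 1d. Pdlim1 had 5 UMIs in 1d, with a ratio of 6.59 (2.69 to 20.9). In core basophils it was 18.2 times 1d, on no more 1d UMIs than that, so the size of this ratio is uncertain.

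**Figure D5:**
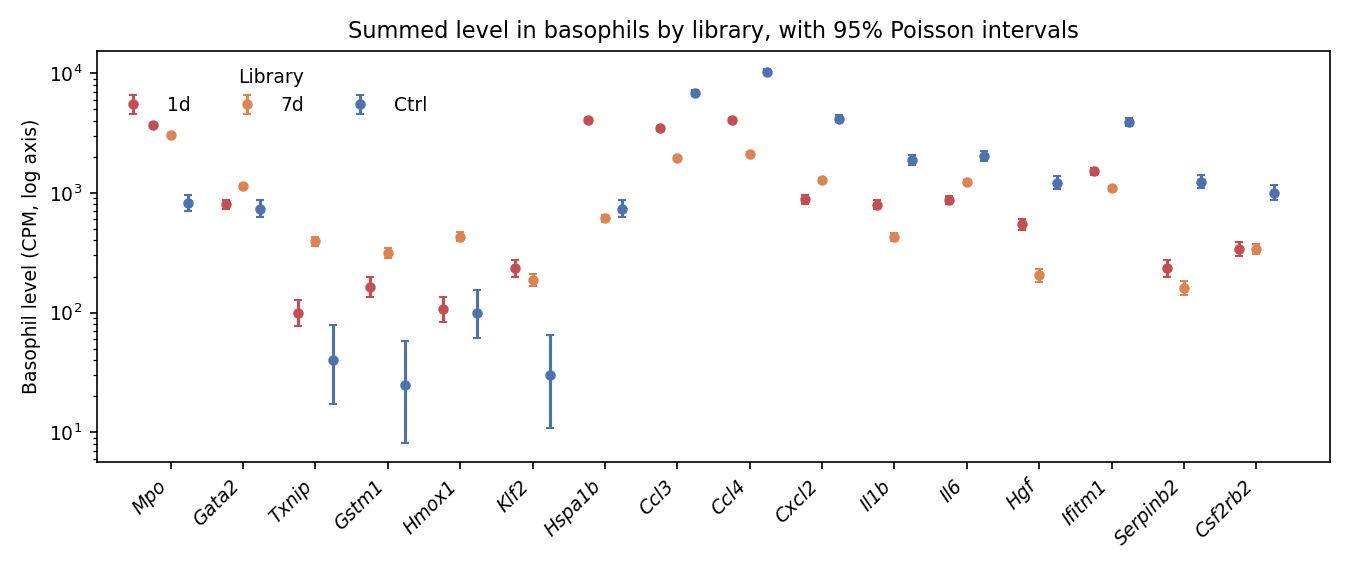
Summed level in CPM (log axis) of 16 genes in basophils of 1d, 7d and Ctrl; points are 1 library each and bars exact 95% Poisson intervals for counting error. Mpo, Txnip, Gstm1 and Klf2 are lowest in Ctrl, whereas Ccl4, Cxcl2, Il1b, Hgf, Ifitm1, Serpinb2 and Csf2rb2 are highest there.

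Mast cells were few, 1 in 1d, 6 in 7d and 0 in Ctrl, where 0 of 8880 kept cells allows a share of up to 0.0338%. The 6 cells of 7d were 0.0924% of kept cells (0.0339 to 0.201). None of the 7 carried Mcpt8. All 7 carried Tpsb2, a tryptase, with 25 to 65 UMIs, Cma1, a chymase that took no part in the choice, with 17 to 117, and Cpa3 with 12 to 56. Mcpt4, another chymase, was less even, with 21 UMIs in the cell of 1d, 82, 24 and 10 in 3 cells of 7d and 0 in the other 3. All 7 carried Kit, with 1 to 7 UMIs, and Hdc, with 4 to 23.

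Set beside the 118 basophils of the same library, the 6 mast cells of 7d held 18297 CPM of Cma1, against 72.7 CPM in basophils, where 1 cell held all 102 UMIs together with 13 of Tpsb2. Il1rl1 stood at 1729 CPM in the mast cells and 194 CPM in the basophils, a ratio of 8.92 (6.11 to 12.7), and Kit at 960 and 62.0 CPM. Ccl2, a monocyte chemokine, had 61 UMIs over the 6 mast cells, with some in each, and 6 over the 118 basophils, or 2929 and 4.28 CPM. Cd200r3 was present in 5 of the 6 mast cells, at 624 CPM against 267 CPM in basophils. By contrast, Ifitm1, Hgf, Il1b and Cxcl2 had no UMI in the 6 mast cells, and Ccl3 stood at 48.0 CPM against 1951 CPM. Over the 20823 UMIs of these cells, a count of 0 has an upper interval limit of 177 CPM. For Hgf, at 205 CPM in 7d basophils, the upper limit of the ratio was 0.871, so the gap may be small. The mast cell of 1d also held no UMI of Ifitm1, Hgf, Il1b or Cxcl2. It did hold 8 UMIs of Ccl3 among its 2413, so low Ccl3 was not seen in that cell. With 1, 6 and 0 cells, no gene was compared between libraries in mast cells.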

How the data were processed

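The members and the gene lists were chosen with earlier results of these data known. The deposited files hold UMI counts per gene and cell barcode for 3 libraries, made with Cell Ranger 6.1.1 per the file headers; CASAVA 1.8, Cell Ranger, Seurat and the build mm10 are named in the submitters' processing notes. The annotation release, the alignment settings and the way cells were called were not given in the sources used here. A barcode was kept if it held 500 UMIs or more, 250 genes or more and no more than 15% of UMIs from mitochondrial genes (5127 of 6043 in 1d, 6497 of 7744 in 7d and 8880 of 11315 in Ctrl).

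UMI counts of a class were summed per library (659938 in 1d basophils, 1402623 in 7d and 200995 in Ctrl) and given as counts per 1000000 (CPM). With 1 library per group there was no test. Genes needed 20 UMIs over the pair, a pseudocount of 0.5 UMI entered log2 ratios, and past 2-fold meant a ratio of at least 2 or at most 0.5. Shares have exact Clopper-Pearson 95% intervals, levels exact Poisson ones and ratios exact conditional ones, and a count of 0 was set to 3 as a floor. The scripts were tested on simulated data.

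Named genes were ranked by how far from 1 the interval bound closest to 1 lay, with 12 at most on each side. Detection in 10% or more of the basophils of the higher library was required, with no cell over 20% of the UMIs there and a level there at least that of the whole library. Haemoglobin, immunoglobulin, mitochondrial, ribosomal protein, sex-linked and unnamed genes were left out. Members of the 15 gene lists were named by role, after their values were seen. The matching rule for basophils against mast cells could not be applied, since Ctrl held 0 mast cells. One gene that the ranking picked is not reported here.

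No doublets were removed in the values reported. The automatic threshold of Scrublet called 2, 0 and 275 cells in 1d, 7d and Ctrl, so it did not work in 1d and 7d. The alternative removed the highest scores at 0.8% per 1000 barcodes, which took 248, 403 and 804 cells. Tools were Python 3.11.15, numpy 2.4.6, scipy 1.17.1, pandas 2.3.3, scanpy 1.11.5, matplotlib 3.10.9, and R 4.3.3 with edgeR 4.0.16 for TMM factors only.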

Additional observations from a re-analysis of the deposited data

How the results depend on the processing

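Over all results that answer a comparison, 466 alternative values stayed close to the reported one and 24 moved, and for single named genes 538 stayed and 134 moved. Of values past 2-fold, 0 reversed. Of 393 alternative list medians 45 took the opposite sign, over 22 of 44 medians whose reported values lay between -0.68 and 0.61. No paired analysis was possible because each group had 1 library and no replicate. With high doublet scores removed, the log2 ratios of the share of all members were 2.70 in 1d against Ctrl (1.87 reported) and 3.54 in 7d against Ctrl (2.73), those of basophils were 2.70 (1.85) and 3.49 (2.69), and the histamine list median in 7d against 1d was 0.049; genes were then not compared with Ctrl, which kept 12 basophils. With cells thinned to 1000 UMIs, fewer genes reached 20 UMIs, and genes past 2-fold numbered 122 of 556 in 1d against Ctrl (955 of 4943 reported), 268 of 1053 in 7d against Ctrl (1419 of 6661) and 186 of 1270 in 7d against 1d (760 of 7428). List medians that moved with thinning were those of the IgE list in 7d against 1d (-0.43), the receptors in 1d and 7d against Ctrl (-0.92 and -1.09), the transcription factors in 7d against Ctrl (0.66) and against 1d (0.39), the p53 targets in 7d against Ctrl (0.20), the NF-kB list in 7d against 1d (-0.41) and the immediate early list in 7d against Ctrl (-0.053). In core basophils the cell cycle medians were 2.84 in 1d and 1.76 in 7d against Ctrl. In basophils with Cd200r3 the p53 median in 7d against 1d was 0.41 and the immediate early median in 7d against Ctrl 0.10. The cycling share was 42.3% in 1d and 33.1% in 7d without thinning, and 36.5% and 15.3% with 1 of the 6 genes enough. Apart from thinning, fewer cells and the core's own definition, the cause was not tested. The core, the Cd200r3 class and the comparison of 7d with 1d were chosen after seeing the data. The 25 Ctrl basophils and 7 mast cells limit every value that rests on them.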

Other observations

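The 13 members that carried neither Mcpt8, Mcpt4 nor Tpsb2 numbered 4 in 1d, 7 in 7d and 2 in Ctrl. Each carried Cpa3, with 1 to 46 UMIs. In 1d, 1 of these cells held 350 UMIs of Prg2, and in 7d, 1 held 333 UMIs of Mpo.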
